A study of Caenorhabditis elegans with 12 samples.

Results

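The additivity of losing LIN-65 and MET-2 was measured per gene as an interaction on the log2 scale. The interaction is the double mutant's mean log2 ratio to the wild type minus the sum of the mean log2 ratios of both single mutants. It was computed for all 2949 genes in the union of the authors' 3 deposited tables, 1 table per mutant, each gene counted once. A value of 0 means that the fold changes of the single mutants multiply. For genes above the wild type, a negative value means that the double mutant stayed below that product. For genes below the wild type, a positive value means the same shortfall. Genes with a positive mean in every table that lists them are called higher (2761 genes), those with a negative mean lower (186 genes), and 2 genes had both signs.

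Total RNA, depleted of ribosomal RNA, came from early Caenorhabditis elegans embryos harvested before the bean stage, from cultures grown at 20 °C. The 4 strains were a double mutant that carries lin-65(delta) I together with met-2(n4256) III, the single mutant met-2(n4256) III, the single mutant lin-65(delta) I, and the wild type N2 (Bristol). Each strain gave 3 libraries described as independent biological replicates. The N2 libraries enter only as the baseline of the log2 ratios, so the 9 mutant libraries carry all values below. No header names this baseline, which was read from the values because each mutated gene stood far below 0 only in strains that lack it. The lin-65 transcript stood at −6.27, −5.86 and −5.98 in the double mutant, at −0.26, −0.21 and −0.18 in met-2, and at −5.90, −5.97 and −5.78 in lin-65. The met-2 transcript stood at −2.73, −2.71 and −2.82 in the double mutant, at −2.32, −2.39 and −2.35 in met-2, and at 0.07, −0.08 and −0.07 in lin-65. Neither had an interaction past the test (0.06 for lin-65 and −0.38 for met-2, limma, adjusted p = 0.841 and 0.196). Both genes serve here as a check of the labels only.

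MET-2 is the worm's SETDB1-like histone methyltransferase, which places the first methyl groups on lysine 9 of histone H3 in embryos. LIN-65 is a largely disordered protein that binds MET-2 and is known to help MET-2 reach the nucleus and gather in foci there. This methylation marks heterochromatin at repeats and at genes that are silent in early embryos. Genetic tests of whether a pair of factors act in the same process compare the double mutant with both single mutants, and the answer depends on the scale on which effects are added.

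For this reason the double mutant was set against 3 levels for each gene. The first is the log2 sum, the product of the fold changes. The second is the linear sum, in which the increases over N2 are added as amounts of RNA: the linear ratios of both single mutants are summed, the wild-type level of 1 is subtracted once, and the log2 is taken. The third is the larger of both single mutants. Tests of the interaction and of the double mutant against each single mutant came from 1 limma fit over all 2949 genes with Benjamini-Hochberg adjustment at 0.05. Log2 ratios do not hold the spread of N2. The standard error of the interaction was therefore widened as if the 3 N2 libraries varied like the mutants, giving a median standard error of 0.28. A low N2 value raises all mutants of a gene alike and lowers its interaction by the same amount. The authors chose the rows on these values, so a gene listed for a high single mutant value tends towards a negative interaction. Depth is unknown because no counts were given. In whole embryos, a change in the number of cells that express a gene and a change in RNA per cell cannot be told apart.

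Replicate 1 of met-2 lay above its companions. The median over higher genes was 1.52, 1.53 and 1.54 in the double mutant, 1.57, 1.10 and 1.12 in met-2, and 0.81, 1.01 and 0.80 in lin-65. The median SD of a gene was 0.117 in the double mutant, 0.307 in met-2 and 0.183 in lin-65, while the fit assumes 1 spread for all. The median interaction, counts called and median linear deviation of higher genes are given with and without that library, as are several gene lists. Other values come from all 9 libraries unless stated, and their dependence on that library is not shown.

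Higher genes mostly fell short of the log2 sum. Their median interaction was −0.57, with quartiles of −0.87 and −0.28 and a range from −5.13 to 0.87. It was negative for 2475 genes (89.6%), and 1005 of 2761 passed the test below 0 (limma), a background of 36.4%. Above 0, 3 genes passed, which is 0.109% of higher genes. That count was 48 without replicate 1 of met-2, 1 without replicate 1 or 2 of lin-65 or any replicate of the double mutant, and 2 without replicate 3 of either single mutant. At an unadjusted p under 0.05 there were 1339 genes below and 14 above. In size, 1176 genes (42.6%) lay within 0.5 of additive, 1556 (56.4%) lay below −0.5, and 29 (1.05%) lay above 0.5. Without replicate 1 of met-2 the median interaction was −0.41, so the shortfall kept its sign at a smaller size, and 1002 genes were called below 0. The count below 0 was 644 without replicate 2 of lin-65, and 441 if the N2 baseline was set 0.2 higher.

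**Figure D1:**
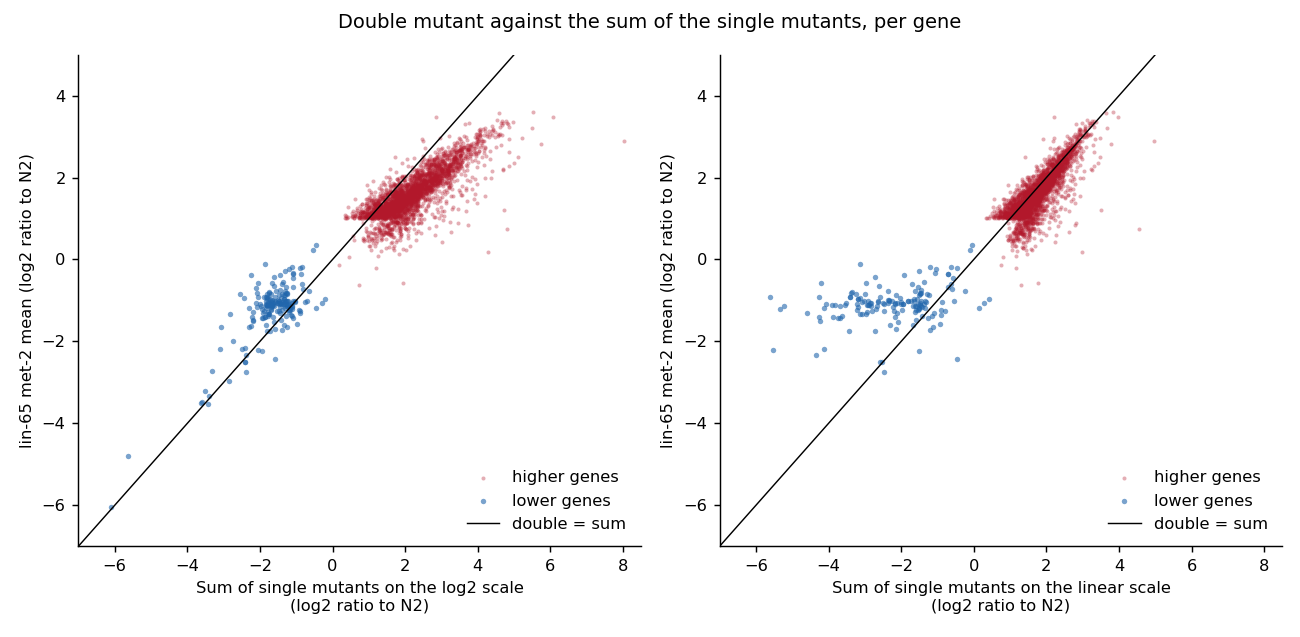
Each point is 1 gene, with the double mutant's mean log2 ratio to N2 on the y axis against the log2 sum (left) or the linear sum (right) of the single mutants on the x axis. Red higher genes lie mostly under the line of equality on the left (median −0.57) and along it on the right (median −0.10), while blue lower genes bend away on the right, where 27 lower genes with no positive linear sum are not drawn and 1 lies below −7.

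The same genes lay close to the linear sum. The double mutant minus the linear sum had a median of −0.10, with quartiles of −0.27 and 0.07, and 2386 higher genes (86.4%) were within 0.5 of it. Without replicate 1 of met-2, an alternative chosen after the data were seen, this median was 0.02 and 83.05% of genes were within 0.5. The sign of this small deviation therefore rested on 1 library. Of the genes called below the log2 sum, 695 of the 1005 (69.2%) lay within 0.5 of the linear sum. That is a smaller share than the 86.4% of all higher genes. In 670 of the 1005 (66.7%) the double mutant's mean was above those of both single mutants, beside 2274 (82.4%) of all higher genes. Of all higher genes 2087 (75.6%) lay within 0.5 of the larger single mutant, so this limit separates it from the linear sum only in part.

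**Figure D2:**
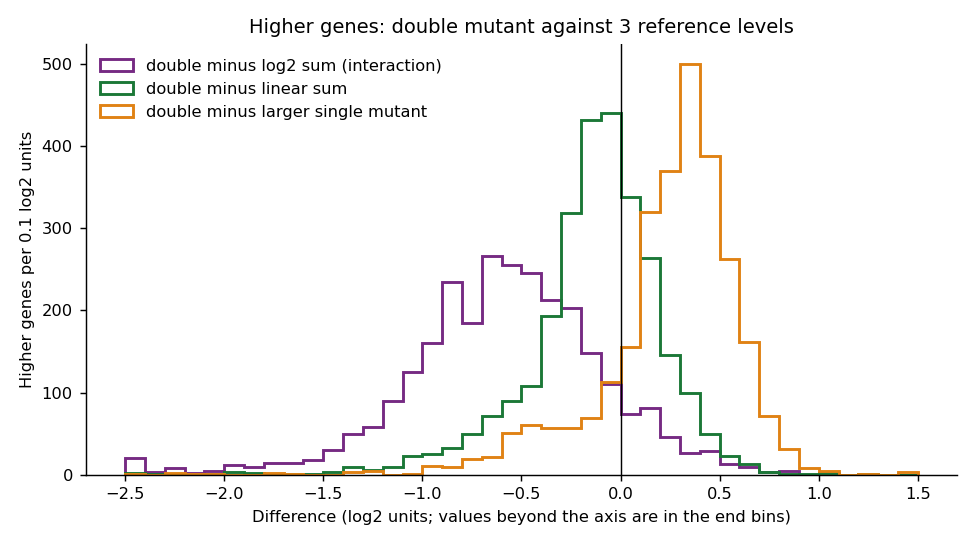
Histogram of higher genes by the double mutant's deviation (x axis, log2 units) from the log2 sum, the linear sum and the larger single mutant, with the number of genes per 0.1 log2 units on the y axis. The medians are −0.57, −0.10 and 0.31, so the median deviation is smallest from the linear sum, which does not give the nearest level of each gene.

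The double mutant also exceeded its stronger parent by a modest amount. Over higher genes it lay 0.31 above the larger single mutant in median, 0.34 above met-2 and 0.73 above lin-65. It was called above lin-65 for 2164 genes (78.4%), above met-2 for 346 (12.5%) and above both for 272 (9.85%). All 3 double mutant libraries lay above all 6 single mutant libraries for 666 genes (24.1%). The count above both depended strongly on single libraries. It was 1615 without replicate 1 of met-2, 52 and 41 without replicates 2 and 3 of met-2, and 62, 50 and 39 without replicates 1, 2 and 3 of the double mutant.

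The 893 higher genes with both single mutants at 1 or above separate these levels best. Their medians were 2.06 in the double mutant, 1.70 in met-2 and 1.29 in lin-65, against a log2 sum of 3.0 and a linear sum of 2.24. The double mutant was nearest to the linear sum for 618 genes (69.2%), to the larger single mutant for 265 (29.7%) and to the log2 sum for 10 (1.12%). Where the smaller single mutant was between 0 and 0.5 the log2 and linear sums hardly differ, and the 520 genes there had a median interaction of −0.13. The median then became more negative in step with the smaller single mutant, at −0.48 for 1259 genes between 0.5 and 1, −0.86 for 676 genes between 1 and 1.5, and −1.25 for 217 genes at 1.5 or above. The deviation from the linear sum ranged only from −0.15 to 0.05 over the same 4 bins. The 2 axes share the single mutant values, and these bins are a description.

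The table that listed a gene went with its interaction. Higher genes listed for the double mutant alone (661) had a median of −0.19, those listed for the double mutant and met-2 (1125) −0.52, and those listed for all 3 mutants (658) −0.97. In the last group 541 genes (82.2%) were called below 0, and their median deviation from the linear sum was −0.17. Genes listed for met-2 alone (121) or lin-65 alone (116) had medians of −0.84 and −0.82 and lay −0.62 and −0.64 from the linear sum. The 16 genes listed for both single mutants but not the double mutant had a median of −1.60, and all 16 were called. Listing uses the same values, so these groups support nothing further about the genes in them.

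Genes of differentiated tissues were near the linear sum, as were higher genes in general (median deviation −0.10). Body wall muscle genes, which encode the contractile apparatus, had 25 higher members with a median interaction of −0.69, and 10 were called below 0 beside the 36.4% of all higher genes. Their median deviation from the linear sum was −0.02. The muscle list without replicate 1 of met-2 again gave 10 called, with medians of −0.50 for the interaction and 0.12 for the linear deviation. Muscle myosin myo-3 stood at 2.21, 2.14 and 2.14 in the double mutant, 2.16, 1.48 and 1.59 in met-2 and 0.96, 1.31 and 1.15 in lin-65. Its double mutant values overlapped replicate 1 of met-2 and exceeded the other single mutant libraries. The paramyosin gene unc-15 and the tropomyosin gene lev-11 had interactions of −0.83 and −0.89. The giant filament protein gene ttn-1 had the second lowest interaction of the list (−1.03, limma, adjusted p = 0.0125), with 1.76, 1.61 and 1.73 in the double mutant against 2.50, 1.75 and 1.97 in met-2 and 0.81, 0.39 and 0.78 in lin-65. The troponin T gene tnt-2 stood at 2.0, 1.66 and 1.5 in the double mutant, 1.79, 1.57 and 1.51 in met-2 and −0.01, −0.19 and 0.10 in lin-65, an interaction of 0.13 (limma, adjusted p = 0.705). Where a single mutant mean is near 0, as in lin-65 here, the log2 and linear sums are nearly the same.

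Neuronal genes gave a similar picture, with 21 higher members, a median interaction of −0.42, 4 called and a linear deviation of 0.01. This count and those of the lists below stand beside 36.4% of all higher genes called below 0. The vesicle priming factor unc-13 stood at 2.83, 2.79 and 2.90 in the double mutant, 2.86, 2.0 and 2.21 in met-2 and 1.44, 1.71 and 1.41 in lin-65. Its interaction of −1.04 (SE 0.29, limma, adjusted p = 0.0131) became a linear deviation of 0.03. Genes for GABA synthesis and vesicle loading, unc-25 and unc-47, had interactions of −0.07 and −0.08 (limma, adjusted p = 0.878 and 0.812). For unc-25 the libraries read 1.99, 2.02 and 2.19 in the double mutant, 2.17, 1.34 and 1.03 in met-2 and 0.42, 1.09 and 0.35 in lin-65. The met-2 libraries spread over more than 1 log2 unit here, so its standard error of 0.36 allows a sizeable interaction in either direction. Ciliary genes had 41 higher members, a median of −0.76 and 19 called, with a linear deviation of −0.17. The Bardet-Biedl gene osm-12 was lowest among them at −1.21, and its 3 double mutant values (2.32, 2.24 and 2.13) overlapped those of met-2 (2.25, 1.91 and 1.83), with lin-65 at 1.38, 1.51 and 1.45. Neuropeptide and insulin genes (27 higher members) had a median of −0.29 with 3 called, and ion channel genes (65) −0.49 with 20 called. Without replicate 1 of met-2 the linear deviations were 0.14 for the neuronal and −0.06 for the ciliary list.

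With all 9 libraries, pharyngeal, intestinal and secreted effector genes had medians at or slightly above the linear sum. Over all higher genes 36.4% were called below 0. The 12 pharyngeal genes had a median interaction of −0.35 with 1 called, the troponin C gene tnc-2 (−1.30), and a linear deviation of 0.14. The 21 intestinal genes had a median of −0.53 with 3 called and a linear deviation of 0.06. The intestinal peptide transporter pept-1 stood at 3.06, 2.90 and 3.03 in the double mutant, 2.85, 2.27 and 2.07 in met-2 and 1.87, 2.12 and 1.71 in lin-65. All double mutant libraries were above all single mutant ones, and the linear sum of 3.0 equalled the double mutant's mean to 2 decimals, although the interaction was −1.30 (limma, adjusted p = 0.0036). Immune and digestive effectors (22) had a median of −0.30, 4 called and a linear deviation of 0.15, and transthyretin-like genes (21) −0.28, 5 called and 0.03. Genes of the abu and pqn family (20) had −0.62, 7 called and −0.05. Without replicate 1 of met-2 the linear deviations were larger, so closeness to the linear sum rested in part on that library. They were 0.37 for pharyngeal, 0.21 for intestinal, 0.31 for immune and digestive, 0.235 for transthyretin-like and 0.11 for abu and pqn genes.

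Epidermal and cuticle genes included a large group of collagens with low values in lin-65. The 64 higher cuticle collagens had medians of 1.70 in the double mutant, 1.75 in met-2 and 0.50 in lin-65. Their median interaction was −0.40 and 9 were called below 0, beside 36.4% of all higher genes. The collagen col-45 was the lowest of them at −2.47 (limma, adjusted p = 4.73e-06), with 2.34, 2.22 and 2.08 in the double mutant, 2.87, 2.52 and 2.61 in met-2 and 2.32, 1.70 and 2.02 in lin-65. Every double mutant value was below every met-2 value, although that difference did not pass (−0.46, limma, adjusted p = 0.0914). Other epidermal, cuticlin and molting genes (47) had a median of −0.58, with 18 called, and the hedgehog-related and patched-related genes (44) −0.68, with 21 called. The linear deviations of these lists were −0.08 and −0.05, and 0.03 and 0.06 without replicate 1 of met-2. The cuticlin gene cut-6 stood at 3.28, 3.24 and 3.2 in the double mutant, 3.07, 2.39 and 2.44 in met-2 and 2.11, 2.40 and 2.19 in lin-65. The hedgehog-related gene wrt-1 stood at 3.31, 3.29 and 3.39 in the double mutant, 2.96, 2.27 and 2.32 in met-2 and 2.08, 2.45 and 2.0 in lin-65. Both were above all single mutant libraries, with interactions of −1.62 and −1.37 but linear deviations of −0.07 and 0.12.

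Markers of these tissues were above 0 in all 9 libraries. All 4 muscle, all 3 pharynx, all 3 neuron and 1 of 3 intestine markers chosen for this check had values and were higher genes. Their part in the interaction was not tested. For embryos stated to be harvested early, the median of muscle genes was 2.0, 1.95 and 1.99 in the double mutant, 2.09, 1.48 and 1.57 in met-2 and 0.81, 1.16 and 0.96 in lin-65, which mirrors the offset of met-2 replicate 1 over all higher genes.

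Oocyte and eggshell genes had medians below both sums, with the double mutant's median between those of its parents. The 17 higher members had medians of 0.92 in the double mutant, 0.45 in met-2 and 1.22 in lin-65. The double mutant was called below lin-65 for 11 of 17 (limma), beside 3.62% of all higher genes. The interaction was called below 0 for 11 of 17, beside 36.4% of all higher genes. The median interaction was −0.72 and the median deviation from the linear sum −0.59. Not every member had this order. The gene cpg-19 had means of 2.32 in the double mutant, 1.80 in met-2 and 1.01 in lin-65, and lay 0.15 above its linear sum. Of the 17, 9 were listed for lin-65 alone, and such a listing favours a lin-65 value above the others, so the counts are not independent of how the authors chose rows. Without replicate 1 of met-2, 12 were called below lin-65 and 14 below the log2 sum.

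Each of the 11 genes called below lin-65 had its double mutant mean between those of the single mutants. The eggshell proteoglycan gene cpg-1 stood at 1.55, 1.46 and 1.42 in the double mutant, 0.34, 0.74 and 0.50 in met-2 and 2.19, 1.90 and 1.97 in lin-65. The eggshell gene cbd-1 stood at 1.25, 1.16 and 1.19 in the double mutant, 0.45, 0.77 and 0.55 in met-2 and 1.88, 1.68 and 1.64 in lin-65. The yolk receptor gene rme-2 stood at 0.83, 0.92 and 0.92 in the double mutant, 0.10, 0.45 and 0.14 in met-2 and 1.86, 1.64 and 1.46 in lin-65. For all 3 genes the groups did not overlap, with the double mutant in the middle. The double mutant minus lin-65 was −0.54 for cpg-1, −0.54 for cbd-1 and −0.77 for rme-2 (limma, adjusted p = 0.0103, 0.00896 and 0.00127). The other genes called were egg-1 and egg-3, which act at fertilization and egg activation, the eggshell genes perm-1 and cpg-2, the oocyte maturation factor oma-2, and the RNA-binding Pumilio genes puf-3, puf-5 and puf-11, with differences from −0.56 to −0.41. The met-2 single mutant had little change in several of them, with means from −0.03 to 0.59 over the 11. Library medians of the list were 0.94, 0.99 and 0.92 in the double mutant, 0.34, 0.50 and 0.35 in met-2 and 1.33, 1.26 and 1.18 in lin-65, so replicate 1 of met-2 did not stand high here as it did over all genes. Which cells these transcripts came from was not tested.

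Germ granule, small RNA and meiosis genes had few members and the same order of medians. The 6 germ granule and small RNA genes had medians of 1.08 in the double mutant, 0.87 in met-2 and 1.36 in lin-65, a median interaction of −0.86 with 5 called, and 3 called below lin-65. Over all higher genes the shares were 36.4% below the log2 sum and 3.62% below lin-65. The Argonaute gene wago-4 stood at 1.51, 1.37 and 1.42 in the double mutant, 1.40, 1.43 and 1.43 in met-2 and 1.80, 1.66 and 1.65 in lin-65. The double mutant overlapped met-2 and lay under all lin-65 libraries, and the interaction was −1.69 (SE 0.23, limma, adjusted p = 5.22e-05). The nuclear Argonaute hrde-1 stood at 0.89, 0.84 and 0.86 in the double mutant, 0.19, 0.43 and 0.35 in met-2 and 1.30, 1.14 and 1.24 in lin-65, between its parents, with an interaction of −0.69 (limma, adjusted p = 0.0301). Of the 6 meiosis genes 4 were called below the log2 sum and 3 below lin-65. Listed for lin-65 alone were 3 of the germ granule and small RNA genes and 4 of the meiosis genes. Such a listing favours a lin-65 value above the others, so these counts are not independent of how the authors chose rows. The meiosis list was assembled by symbol, and its member him-4 encodes the basement membrane protein hemicentin. The libraries of the 3 mutants overlapped in him-19, with 1.45, 1.44 and 1.32 in the double mutant, 1.33, 1.42 and 1.53 in met-2 and 1.36, 1.33 and 1.43 in lin-65. Its interaction of −1.40 (limma, adjusted p = 0.000395) came with means that differed by less than the spread between libraries. Of 5 higher sperm genes 3 were called, with a median of −1.21, and the lowest were spe-41 at −1.5 and spe-19 at −1.47.

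Higher members of the F-box, MATH and BTB, and chemoreceptor families had medians below both sums. F-box proteins recruit substrates to ubiquitin ligases, and 13 of 16 higher members were called below 0, beside 36.4% of all higher genes, with a median of −0.98 and a linear deviation of −0.58. Of 21 MATH and BTB genes, whose products include adaptors of cullin-based ubiquitin ligases, 13 were called, with −0.77 and −0.51. Of 19 chemoreceptor genes 11 were called, with −1.12 and −0.49. Listed for lin-65 alone were 5 of these F-box, 6 MATH and BTB and 3 chemoreceptor genes. Listed for met-2 alone were 1, 3 and 3, and 1 F-box and 1 chemoreceptor gene were listed for both single mutants only. Such listings favour a single mutant value above the double mutant, so the counts and medians are not independent of how the authors chose rows. Among the 26 higher pseudogenes 16 were called, with medians of −0.95 and −0.53. Reads of near-identical copies may have been divided in such families, and no source used here says how the authors counted them. The F-box gene fbxa-107, listed for lin-65 alone, stood at −0.70, −0.51 and −0.51 in the double mutant, −0.02, 0.39 and 0.33 in met-2 and 1.64, 1.92 and 1.53 in lin-65. The double mutant lay below every single mutant library, and its difference from lin-65 was −2.27 (limma, adjusted p = 1.77e-07). The BTB and MATH gene bath-3 stood at 1.66, 1.42 and 1.68 in the double mutant, 1.98, 2.0 and 2.11 in met-2 and 1.90, 2.08 and 1.69 in lin-65. Its double mutant libraries lay below all single mutant ones, although neither difference passed (−0.45 and −0.31, limma, adjusted p = 0.0765 and 0.112).

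**Figure D3:**
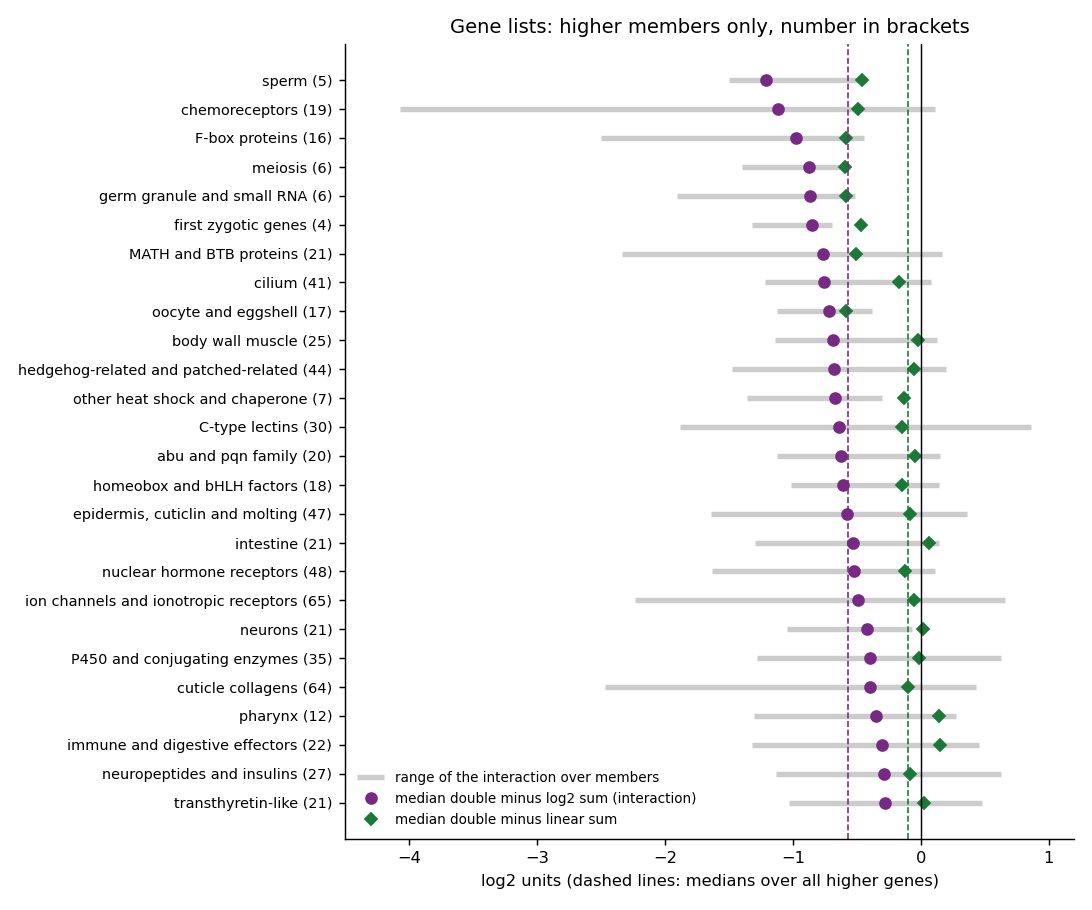
Median deviation of higher members of each gene list from the log2 sum (purple circles) and the linear sum (green diamonds), in log2 units on the x axis, with grey bars for the range of the interaction over members and dashed lines for the medians of all higher genes. With all 9 libraries, tissue lists have green diamonds near 0. The sperm, chemoreceptor, F-box, meiosis, germ granule, first zygotic, MATH and BTB, and oocyte lists have green diamonds at −0.46 or below.

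The remaining lists are given by their counts, beside the 36.4% of all higher genes called below 0. Nuclear hormone receptors (48 higher members) had a median interaction of −0.52 with 15 called, homeobox and bHLH transcription factors (18) −0.61 with 8, and C-type lectins (30) −0.64 with 13. P450 and conjugating enzymes (35) had −0.40 with 9 called, and chaperones other than the inducible heat shock genes (7) −0.67 with 4. Of 4 higher first zygotic genes 3 were called, with a median of −0.85 and a linear deviation of −0.47. No higher member of any list was called above 0 in the fit of all 9 libraries. Without replicate 1 of met-2, 2 members each of the neuropeptide, ion channel and transthyretin-like lists were called above 0, and 1 each of the collagen, epidermal, C-type lectin and immune effector lists. No histone or ribosomal protein gene had a value, and of the heterochromatin factors met-2 and lin-65 alone did. The LIM homeobox gene ceh-14 was among the most exactly additive, at 1.43, 1.39 and 1.21 in the double mutant, 0.74, 0.80 and 0.85 in met-2 and 0.37, 0.42 and 0.84 in lin-65, with an interaction of 0.00. All its double mutant libraries were above all others.

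The strongest shortfalls were genes whose double mutant lay below a single mutant. Over higher genes, 55 (1.99%) were called below met-2, 100 (3.62%) below lin-65 and 15 (0.543%) below both. Of the 55, 46 had positive values in all 3 lin-65 libraries, and of the 100, 63 had positive values in all 3 met-2 libraries. In the 46 and the 63 genes the second mutation went with a lower value although it did not lower the gene by itself. Both single mutant means were positive in 2670 (96.7%) of all higher genes, so positive values in the other single mutant are not particular to these genes. The lowest interaction was that of C55C3.3 on chromosome IV, a protein-coding gene, at −5.13 (SE 0.24, limma, adjusted p = 1.80e-10). It stood at 2.91, 2.69 and 3.08 in the double mutant, 3.99, 4.09 and 4.24 in met-2 and 3.95, 3.87 and 3.92 in lin-65. The double mutant was below every single mutant library while the single mutants differed little. Y102A5C.36 on chromosome V was near N2 in the double mutant, at −0.29, 0.55 and 0.29, against 1.89, 1.81 and 1.91 in met-2 and 2.29, 2.56 and 2.36 in lin-65, an interaction of −4.10. The chromosome III gene enu-3.2 stood at 1.58, 1.62 and 1.47 in the double mutant, 2.20, 2.01 and 2.14 in met-2 and 2.14, 1.99 and 2.13 in lin-65. Like the first of these genes it lay below both parents, which matched each other, and both differences passed (−0.56 and −0.53, limma, adjusted p = 0.0299 and 0.00811).

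Other extreme genes were high in met-2 and lower wherever LIN-65 was missing. The chemoreceptor gene srw-85 stood at 0.68, 0.32 and 1.21 in the double mutant, 4.71, 4.53 and 4.39 in met-2 and 0.41, 0.35 and 0.04 in lin-65. ZK1053.2 stood at 1.24, 0.96 and 1.38 in the double mutant, 3.17, 3.26 and 3.32 in met-2 and 1.49, 1.30 and 1.59 in lin-65. F40D4.13 stood at 0.83, 1.11 and 0.58 in the double mutant, 2.64, 2.42 and 2.35 in met-2 and 1.28, 1.30 and 1.16 in lin-65. In each the double mutant was far below met-2, by −3.81, −2.05 and −1.63 (limma, adjusted p = 9.92e-10, 2.09e-07 and 5.77e-06). In F40D4.13 it was also below every lin-65 library, and that difference passed (−0.41, limma, adjusted p = 0.0489). Against lin-65, srw-85 and ZK1053.2 differed by 0.47 and −0.26, which did not pass (limma, adjusted p = 0.0513 and 0.169). The nuclear hormone receptor gene nhr-247 was likewise highest in met-2, with 0.40, 0.60 and 0.78 in the double mutant, 2.02, 1.78 and 2.05 in met-2 and 0.26, 0.07 and 0.00 in lin-65. The pseudogenes Y48G1BL.1 and Y73B3A.13 completed the 8 lowest interactions, at −2.94 and −2.62.

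In another set the double mutant matched its larger parent. Its mean lay within 0.25 of the larger single mutant, with both single mutants of 1 sign, for 900 of all 2949 genes. The 6 of these with the highest smaller parent were mihp-1, pde-1, mksr-2, Y55F3AM.11, sri-62 and clec-126. The cyclic nucleotide phosphodiesterase gene pde-1 stood at 3.17, 3.13 and 3.3 in the double mutant, 2.65, 2.36 and 2.29 in met-2 and 3.14, 3.13 and 2.91 in lin-65. The chemoreceptor gene sri-62 stood at 3.51, 3.60 and 3.68 in the double mutant, 2.29, 1.92 and 1.82 in met-2 and 3.52, 3.61 and 3.39 in lin-65. In both the double mutant overlapped lin-65 and cleared met-2, and it differed from lin-65 by 0.14 and 0.09 (limma, adjusted p = 0.45 and 0.638). For mihp-1 the double mutant stood at 3.40, 3.49 and 3.57, met-2 at 2.80, 2.74 and 2.71, and lin-65 at 3.32, 3.32 and 3.29. These interactions were −2.29 for pde-1, −1.92 for sri-62 and −2.57 for mihp-1. A difference that missed the threshold does not show equal levels, as its standard error was near 0.20 for a typical gene.

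**Figure D4:**
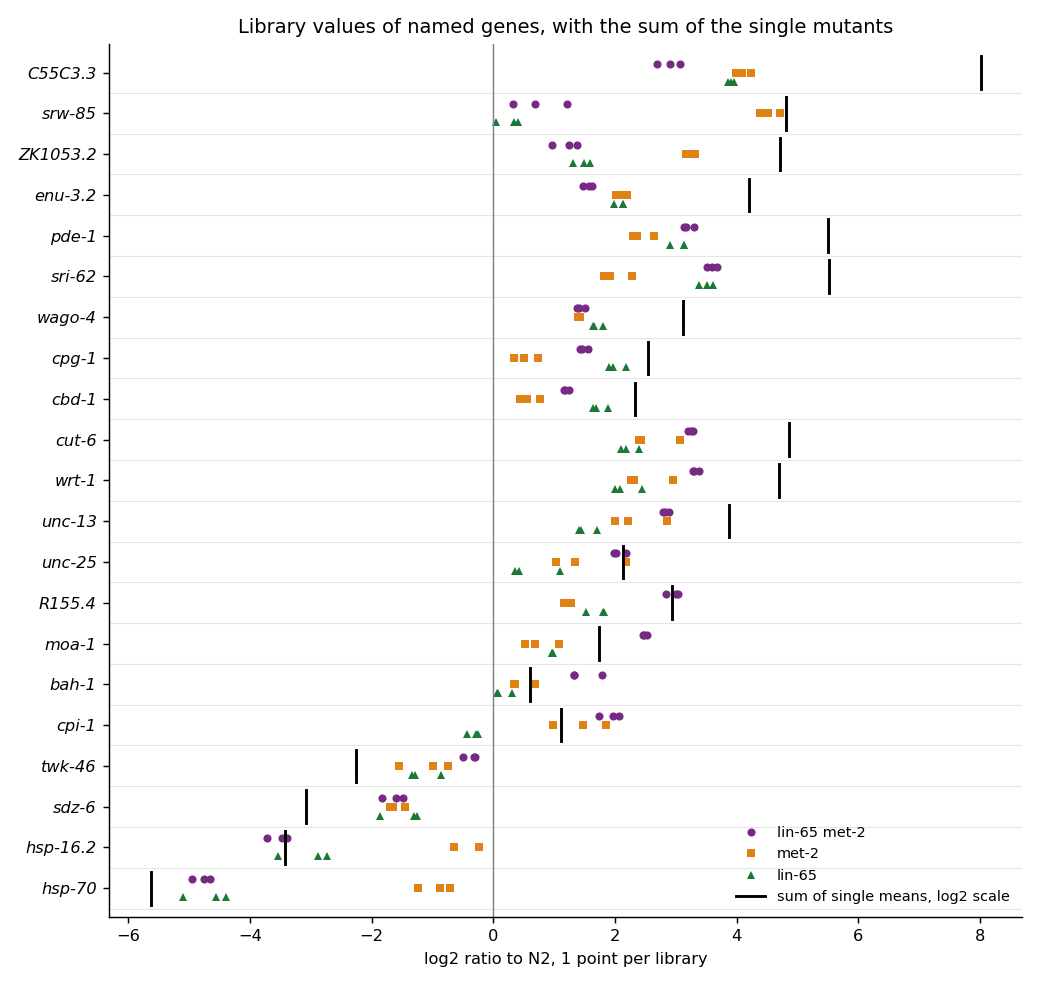
Values of single libraries for genes that show each pattern, as log2 ratio to N2 on the x axis, with purple circles for the double mutant, orange squares for met-2, green triangles for lin-65 and a black bar for the log2 sum of the single mutant means. In C55C3.3 and enu-3.2 the circles lie left of both parents, in cpg-1 and cbd-1 between them, in moa-1 and bah-1 right of the bar, and in hsp-16.2 at the bar.

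Genes that were additive on the log2 scale with strong effects of both mutations were rare. In 5 genes the interaction was within 0.25 of 0 while both single mutants were beyond 1 in the same direction. These were the lipase-like gene lips-11 (−0.21), D2024.4 (−0.13), valv-1 (−0.11), Y38A10A.2 (−0.02) and the pseudogene R155.4 (0.01). The values of lips-11 were 2.61, 2.67 and 2.79 in the double mutant, 1.95, 1.76 and 1.58 in met-2 and 1.03, 1.15 and 1.23 in lin-65. Those of R155.4 were 3.0, 2.84 and 3.04 in the double mutant, 1.17, 1.27 and 1.27 in met-2 and 1.52, 1.80 and 1.81 in lin-65. In both every double mutant library exceeded every single mutant library, and R155.4 lay 0.75 above its linear sum. In D2024.4 and valv-1 a single met-2 library (1.97 and 1.96) was about 1 unit above its companions, so their additivity rests on a wide spread.

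The 3 higher genes that passed the test above the log2 sum had smaller interactions. The gene moa-1 on chromosome III stood at 2.47, 2.54 and 2.46 in the double mutant, 0.52, 1.08 and 0.69 in met-2 and 0.98, 0.96 and 0.97 in lin-65. All its double mutant libraries were more than 1 unit above all others. Its interaction was 0.76 (SE 0.25, limma, adjusted p = 0.0274), and it lay 1.08 above its linear sum. The gene bah-1, known from resistance to bacterial biofilm on the head, stood at 1.78, 1.33 and 1.32 in the double mutant, 0.33, 0.69 and 0.35 in met-2 and 0.08, 0.30 and 0.07 in lin-65, an interaction of 0.87 (limma, adjusted p = 0.0188). The cystatin gene cpi-1 stood at 1.75, 1.97 and 2.07 in the double mutant, 1.86, 1.48 and 0.98 in met-2 and −0.25, −0.29 and −0.43 in lin-65. Its interaction of 0.81 (limma, adjusted p = 0.0397) came with a negative value in lin-65 and an overlap with met-2, so the double mutant was not shown to exceed met-2 (0.48, limma, adjusted p = 0.0956). The calls of moa-1 and cpi-1 were each lost when any 1 of several libraries was left out, and that of bah-1 when replicate 1 of the double mutant was.

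Lower genes showed the mirrored shortfall with smaller numbers. Their medians were −1.09 in the double mutant, −0.52 in met-2 and −1.08 in lin-65, and the double mutant lay −0.08 from the larger single mutant and −0.13 from lin-65. The median interaction was 0.47, with quartiles of 0.12 and 0.72, and it was above 0 for 150 of 186 genes (80.6%). The test called 40 genes above 0 (21.5%) and 4 below 0 (2.15%). At an unadjusted p under 0.05 there were 66 above and 5 below. In size, 96 genes (51.6%) lay within 0.5 of additive, 85 above 0.5 and 5 below −0.5. The median stayed between 0.44 and 0.48 whichever library was left out, while the count above 0 was 57 without replicate 1 of met-2 and at its lowest, 31, without replicate 1 of the double mutant.

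On the linear scale lower genes departed further from additivity. The amounts lost by the single mutants add up to more than the wild-type level for 27 of 186 genes, which leaves no positive linear sum, and for 40 more the sum was at or below −3. Over the 159 genes with a positive sum the double mutant lay 0.96 above it in median. In 148 genes (79.6%) the double mutant was within 0.5 of the larger single mutant. The 8 genes with both single mutants at −1 or below had medians of −1.22 in the double mutant, −1.10 in met-2 and −1.25 in lin-65, and 7 of them were nearest to the larger single mutant. The double mutant was called below met-2 for 88 genes (47.3%) and below both single mutants for 17 (9.14%), and all its libraries lay below all single mutant libraries for 31 (16.7%).

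The inducible heat shock genes were near additive on the log2 scale, with single mutant values that were low in lin-65 and closer to 0 in met-2. Their 9 lower members had medians of −3.32 in the double mutant, −0.56 in met-2 and −2.60 in lin-65. The median interaction was 0.07, from −0.11 to 0.84, and 1 was called above 0, beside 21.5% of all lower genes. The small heat shock gene hsp-16.2 stood at −3.71, −3.47 and −3.38 in the double mutant, −0.24, −0.64 and −0.24 in met-2 and −2.74, −2.89 and −3.54 in lin-65. The double mutant overlapped lin-65 through 1 lin-65 library, and the difference of −0.47 missed the threshold (limma, adjusted p = 0.0527). Under both of its identifiers hsp-16.48 was called below lin-65, by −0.78 and −0.60 (limma, adjusted p = 0.00316 and 0.0147). The 1 gene with a called interaction was the chaperone gene hsp-70, at −4.96, −4.75 and −4.65 in the double mutant, −0.88, −1.23 and −0.71 in met-2 and −4.40, −4.56 and −5.10 in lin-65, an interaction of 0.84 (limma, adjusted p = 0.033). Here the double mutant sat at the lin-65 level, −0.10 from it. Both hsp-16.1 and hsp-16.48 occur under a pair of identifiers, and F44E5.4 is a near copy of F44E5.5, so the 9 are not separate observations.

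The lower genes furthest above the log2 sum had a double mutant above or near its parents. The potassium channel gene twk-46 stood at −0.50, −0.32 and −0.30 in the double mutant, −0.75, −1.55 and −0.99 in met-2 and −1.28, −1.33 and −0.86 in lin-65. No library overlapped, and the double mutant was 0.72 above met-2 and 0.78 above lin-65 (limma, adjusted p = 0.0292 and 0.00327), an interaction of 1.88. It was the 1 lower gene called above both parents. In sdz-6, named for its dependence on the maternal factor SKN-1, all strains were at a similar level, with −1.82, −1.49 and −1.60 in the double mutant, −1.70, −1.66 and −1.45 in met-2 and −1.30, −1.25 and −1.86 in lin-65, an interaction of 1.43. The libraries of the 3 mutants also overlapped in the acyltransferase gene oac-34 (1.49). In the glucuronosyltransferase gene ugt-34 (1.5) the double mutant, at −0.95, −0.91 and −0.99, overlapped met-2, at −1.34, −0.98 and −1.02, and lay above all lin-65 libraries, at −1.17, −1.56 and −1.28, although that difference did not pass (0.39, limma, adjusted p = 0.0539). The gene K10D3.6 (1.75) was near N2 in the double mutant, at −0.33, 0.08 and −0.08, and lowered in lin-65, at −1.27, −1.48 and −1.55, with met-2 at −0.62, 0.02 and −0.69. Of 11 lower chemoreceptors 4 were called above 0, with a median of 0.68, and of 13 lower F-box genes 1 was, fbxa-131 at 0.91, with a median of 0.41. Over all lower genes 21.5% were called above 0, so these small counts show no trait of either family.

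The 4 lower genes called below 0 had opposite signs in the single mutants. None was called without replicate 1 of the double mutant or with an N2 baseline 0.2 higher. The count was 1 without replicate 2 or 3 of the double mutant, replicate 1 of lin-65 or replicate 3 of met-2, and 2 without replicate 2 or 3 of lin-65. The pseudogene Y38H6C.5 stood at −2.47, −2.33 and −2.45 in the double mutant, 0.84, 0.22 and 0.70 in met-2 and −2.13, −2.10 and −2.26 in lin-65, an interaction of −0.84 (limma, adjusted p = 0.0207). The double mutant lay far below met-2 and also below every lin-65 library, although the difference from lin-65 did not pass (−0.25, limma, adjusted p = 0.207). The other 3 are identifiers without a match in the annotation, with interactions of −0.77, −0.76 and −0.73.

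Position along the chromosomes differed between called and other higher genes by a modest share. H3K9 methylation in worms is known to be concentrated on the outer parts, or arms, of the autosomes. Of 982 called genes with a position, 658 (67.0%) lay in the first or last of 3 equal parts of their chromosome, against 55.6% of higher genes that were not called and 62.2% of all annotated protein-coding genes. On the X chromosome lay 17% of the called genes and 23.5% of those not called. Median interactions by chromosome were −0.64 on I, −0.57 on II, −0.65 on III, −0.59 on IV, −0.55 on V and −0.49 on X. Neighbouring genes are not independent, and these shares are a description without a test.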

How the data were processed

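RNA was measured in 3 libraries each of the double mutant, met-2, lin-65 and N2. In the labels the molecule is genomic DNA, but the kit and design describe RNA. The deposited log2 values were used as the authors gave them; edgeR and the genome build ce10 are named per the submitters' processing notes, and no source used here gives the aligner, annotation, scaling or rule for choosing rows. The tables have no N2 column, counts or depth, so precision rests on the spread of 3 libraries. Genes found in several tables had identical values. Members, gene lists (30, by symbol) and tests were chosen with earlier results of these data known.

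Limma 3.58.1 in R 4.3.3 was fitted to the 9 mutant libraries and 2949 genes without covariates or a filter, with 2-sided tests at an adjusted p of 0.05. The interaction's standard error was multiplied by the square root of 4/3 to allow for 3 N2 libraries. The script was tested on simulated data. Named genes were met-2 and lin-65, the called genes with the lowest and highest interactions (up to 8 for higher and 5 for lower genes), up to 6 additive genes and 6 genes matching the larger parent, the 2 lowest and highest of each list, and all inducible heat shock genes. Cell type markers and the oocyte genes called below lin-65 were named as well. Of the identifiers 2869 matched the Ensembl 115 annotation of WBcel235, used for names, types, chromosomes and position in 3 equal parts of each, and 80 did not. No coordinate was converted. Replicate numbers did not pair the samples. Alternatives changed the N2 allowance, baseline, library scaling, weights, rows used, scale of additivity and libraries. No sequence is shown.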

Additional observations from a re-analysis of the deposited data

Results flagged for a closer look

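The interaction itself is a difference between the effect of 1 mutation with and without the other, so counts of genes that passed its test are given here with the extreme named genes, and no explanation is weighed. Among higher genes 1005 had an interaction below 0 and 3 above 0. Among lower genes 4 had one below 0 and 40 above 0.

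Of the 1005 higher genes below 0, the 8 lowest were −5.13 for C55C3.3, −4.10 for Y102A5C.36, −4.07 for srw-85, −3.51 for ZK1053.2, −2.94 for Y48G1BL.1, −2.88 for F40D4.13, −2.65 for enu-3.2 and −2.62 for Y73B3A.13. The values above 0 were 0.87 for bah-1, 0.81 for cpi-1 and 0.76 for moa-1. For lower genes the values below 0 were −0.84 for Y38H6C.5 and −0.77, −0.76 and −0.73 for 3 unmatched identifiers. Of the 40 lower genes above 0, the 5 highest were 1.88 for twk-46, 1.75 for K10D3.6, 1.5 for ugt-34, 1.49 for oac-34 and 1.43 for sdz-6. A further 61 named genes passed, with interactions from −2.57 to 1.41. With 3 libraries per group, single libraries were not screened for outlying values.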

How the results depend on the processing

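The direction of the median interaction kept its sign for higher and lower genes under every alternative on the log2 scale. On the linear scale it was −0.10 for higher and 0.96 for lower genes, with 86.4% of higher genes within 0.5, and without met-2 replicate 1 as well it was 0.019 (a reversed sign), 0.95 and 83.05%. Against the linear sum 3 named genes with a called interaction changed sign, wrt-1 (0.12), abu-13 (0.11) and unc-13 (0.0298), and so did 13 named genes whose interaction was not called. Leaving out each library gave 644 to 1222 higher genes called below 0, 1 to 48 above 0, 39 to 1615 with the double mutant above both parents, lower genes called 31 to 57 times above and 0 to 4 times below 0, medians from −0.65 to −0.41 (higher) and 0.44 to 0.48 (lower), and 35% to 54.8% within 0.5. The lowest counts below 0 and above both parents came without lin-65 replicate 2 and double mutant replicate 3, and the 48 and 1615 came without met-2 replicate 1. Without an allowance for N2, 13 higher and 64 lower genes were called above 0. With library medians equalised the counts of higher genes were 1542 below, 20 above, and 1179 above both parents. With array weights the last was 99. An N2 baseline 0.2 higher gave 441 below and 10 above (higher), 0 below and 61 above (lower) and a lower-gene median of 0.67. A baseline 0.2 lower gave 1647, 1 and a median of 0.27, with 26.8% within 0.5. Genes in at least 2 tables gave 1 higher and 17 lower genes above 0 and a lower-gene median of 0.35. Genes in all 3 tables, a smaller set, gave 614 below and 0 above (higher), 0 below and 3 above (lower), medians of −0.97 and 0.91 and 4.56% within 0.5. Limits of 0.25 and 1 gave 19.3% and 83.48%. The causes of these changes were not tested. The replicate block, with numbers that did not pair the samples (correlations from −0.213 to 0.0424), left 2 lower genes called below 0, and counts of 857 higher genes below 0 and 188 above both parents. Unknown depth limits low genes.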
